A study of Mus musculus with 2 samples.

Results

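Basophils and mast cells are the cells of the high-affinity IgE receptor, and they were taken here from the single-cell transcriptomes of liver leukocytes (CD45+) of mice. A barcode was counted among them when at least 3 of 7 gate genes (Mcpt8, Cpa3, Ms4a2, Fcer1a, Gata2, Cd200r3 and Hdc) had a UMI, a uniquely tagged RNA molecule, and Cd79a, Cd3e, Ncr1, Siglech and Csf3r had none. These last genes mark B cells, T cells, NK cells and ILC1, plasmacytoid dendritic cells and neutrophils. The rule found 160 of 35399 kept barcodes, 57 of 17632 in the untreated library and 103 of 17767 in the ConA library. The cells were thus selected on measured values of their own RNA, and the levels of the gate genes describe the selection.

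The study has 1 library from untreated wild-type C57BL/6J mice and 1 from age-matched wild-type C57BL/6J mice treated with concanavalin A (ConA), a lectin from beans that stimulates T lymphocytes, at 10 mg/kg by intravenous injection, 1 injection a week over 3 weeks. The labels call this low-dose schedule a model of immune tolerance, and the comparison asks what it leaves behind in the liver's immune cells. In both groups, liver cells were enriched on a Ficoll gradient and sorted for CD45 before droplet capture. The number of mice, their age and sex and the time from the last injection to collection are not given in the sources used here, and basophils and mast cells were not enriched by the sort. Each group is 1 library, so the groups cannot be tested against each other and every difference below is between these libraries. Intervals are exact 95% intervals, Clopper-Pearson for shares and Poisson for counts and their ratios, and cover counting error only. A level is given as counts per 1000000 UMIs of all gated cells of a library (CPM).

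Basophils and mast cells both arise from bone marrow progenitors under GATA2 and carry IgE on a receptor whose alpha chain is encoded by Fcer1a, beta chain by Ms4a2 and gamma chain by Fcer1g. Crosslinking of bound IgE releases histamine, which the enzyme encoded by Hdc makes, together with proteases, leukotrienes, chemokines and interleukin 4 (IL-4). Basophils circulate and enter inflamed tissue, whereas mature mast cells depend on the receptor Kit, live in tissue and hold tryptases and chymases such as Tpsb2 and Cma1.

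The gated cells made up 0.323% of the kept barcodes of the untreated library (0.245 to 0.419) and 0.58% of those of the ConA library (0.473 to 0.703). The share was 1.79-fold higher in the ConA library (1.29 to 2.52). Before the 5 lineage genes were applied, 85 untreated and 166 ConA barcodes had at least 3 gate genes, a ratio of shares of 1.94 (1.48 to 2.55). The lineage genes left out 28 and 63 of them. Cd79a alone or with others was detected in 14 and 24 of those left out, Cd3e in 3 and 33, Csf3r in 8 and 15, Ncr1 in 4 and 4, and Siglech in 1 and 6. Those left out had medians of 4194 and 4613 UMIs, against 3257 and 3623 UMIs in the gated cells, so they were the deeper barcodes in both libraries. What these barcodes hold was not tested. Other cells of an organ count in the denominator, so a share says nothing of absolute cell numbers. That denominator differed in make-up between the libraries. Barcodes with Csf3r and S100a8 but no Cd79a or Cd3e numbered 4554 in the untreated and 838 in the ConA library. Those with Cd3e but no Cd79a numbered 2716 and 5981, and those with Cd79a but no Cd3e 5544 and 4083. The part of this shift in the ratio of shares was not tested.

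Around the threshold, 4 untreated and 4 ConA cells without lineage genes had exactly 3 gate genes, and 6 and 10 barcodes had 2. Most gated cells lay well inside it, with 6 or 7 gate genes in 32 of 57 untreated and 62 of 103 ConA cells.

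**Figure D1:**
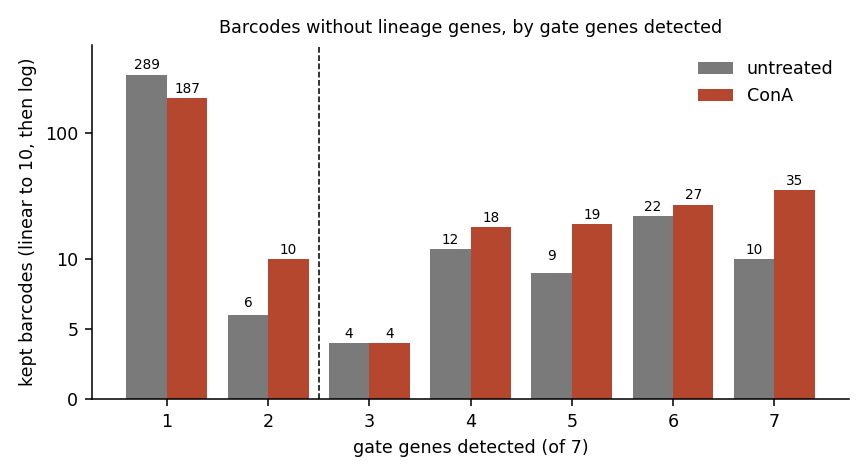
Number of kept barcodes (vertical axis, linear to 10 and logarithmic above) without any of the 5 lineage genes, by how many of the 7 gate genes had a UMI (horizontal axis), in the untreated (grey) and ConA (red) library. The dashed line is the threshold of 3 gate genes, and few barcodes lie next to it on either side (6 and 10 with 2 gate genes, 4 and 4 with 3).

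Of the gated cells, 53 untreated and 96 ConA cells had Mcpt8, Cd200r3 or Prss34, which mark basophils in mice, and fewer than 2 of 8 mast cell genes. Mcpt8 and Cd200r3 are gate genes, so this count largely restates the gate. Of the basophil markers outside the gate, Prss34 was detected in 4 of 57 and 12 of 103 cells. Itga2 was detected in 33 and 53 cells and stood at 311 and 224 CPM, against 33.1 and 26.9 CPM in all other cells. Only 1 cell in each library had at least 2 mast cell genes. The untreated one had 5 Kit UMIs and 1 Cma1 UMI among 6002. The ConA one had 6 Kit, 27 Tpsb2, 39 Cma1 and 3 Mrgprb2 UMIs among 2059, and it held every Tpsb2 and Cma1 UMI of the ConA cells. Another 3 and 6 cells had neither set. Tpsab1, Mcpt1, Mcpt2 and Mrgprb1 had no UMI in the gated cells, and Mcpt4 had 1, in the ConA library. Among the gated cells, mast cell genes thus occurred together in 1 cell of each library only. Outside the gate, 11 untreated and 9 ConA kept barcodes also had at least 2 of the 8 mast cell genes.

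The gate genes themselves were at like levels in both libraries apart from Mcpt8. Hdc stood at 3698 and 3930.3 CPM in the untreated and the ConA cells, with a median of 10 and 12 UMIs per cell and a range of 0 to 70 and 0 to 44. Outside the gated cells Hdc was at 326 and 66.0 CPM. Gata2, the transcription factor of the lineage, stood at 1207 and 1192 CPM, and Cd200r3, an activating receptor of basophils, at 1186 and 1171 CPM. Cpa3, a carboxypeptidase of granules, stood at 736 and 688 CPM. The receptor chain genes Ms4a2 (585 and 629 CPM) and Fcer1a (435 and 496 CPM) had log2 ratios, ConA over untreated with 5 CPM added to each level, of 0.10 and 0.19, with intervals that include 0 (-0.23 to 0.44 and -0.19 to 0.58). Intervals of log2 ratios refer to the ratio without the added constant.

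Gata2 is a gate gene, so its level in these cells restates the selection. The RefSeq promoter table (build GRCm38.p6, another build than that of the files) was searched for the letters GATAA, the core that GATA factors bind. Both strands were searched in the 250 bases before each start. All 7 gate genes were in the table. Of these, 4 had the letters (Ms4a2 3 times, Cd200r3 2 times, Cpa3 and Fcer1a 1 time each), and among all 27025 gene symbols 25.5% had them. The windows of the top pair are shown because they hold more than 1 match, with each match in capitals (TTATC is GATAA on the other strand). The Ms4a2 window is chr19:11623720-11623958 on the minus strand and the Cd200r3 window chr16:44943548-44943659 on the plus strand, both read 5′ to 3′ toward the start of transcription.
Ms4a2: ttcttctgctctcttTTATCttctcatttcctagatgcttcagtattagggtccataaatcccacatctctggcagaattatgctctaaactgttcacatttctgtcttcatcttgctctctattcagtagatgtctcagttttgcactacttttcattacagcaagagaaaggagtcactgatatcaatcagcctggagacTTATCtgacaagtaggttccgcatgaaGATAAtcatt
Cd200r3: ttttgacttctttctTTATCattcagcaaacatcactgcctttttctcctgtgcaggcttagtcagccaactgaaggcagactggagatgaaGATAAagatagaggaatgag
A match is a run of letters and not a site shown to be bound.

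The leading genes were ranked by the smaller of both libraries' folds over all other kept cells, with 5 CPM added, and were in part gate genes, which the rule used. First in this order was Cyp11a1, the mitochondrial enzyme that opens steroid synthesis from cholesterol, at 1367 and 1256 CPM against 3.12 and 5.39 CPM in all other cells. It was detected in 49 of 57 and 93 of 103 cells. Slc24a3, a sodium, potassium and calcium exchanger, stood at 1160.3 and 1003 CPM against 4.3 and 7.35. Csrp3, better known as a muscle LIM protein, stood at 363 and 315 CPM against 0.712 and 2.04, and Myo1d, an unconventional myosin, at 855 and 848 CPM against 12.7 and 11. Cd63, a tetraspanin of granule membranes that reaches the surface on degranulation, stood at 1689 and 1445 CPM against 19.9 and 23.8. The secreted factors among these leading genes (Ccl3, Hgf, Csf1 and Il6) are described below. None of the 15 leading genes other than Mcpt8 and Il6 differed 2-fold between the libraries.

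**Figure D2:**
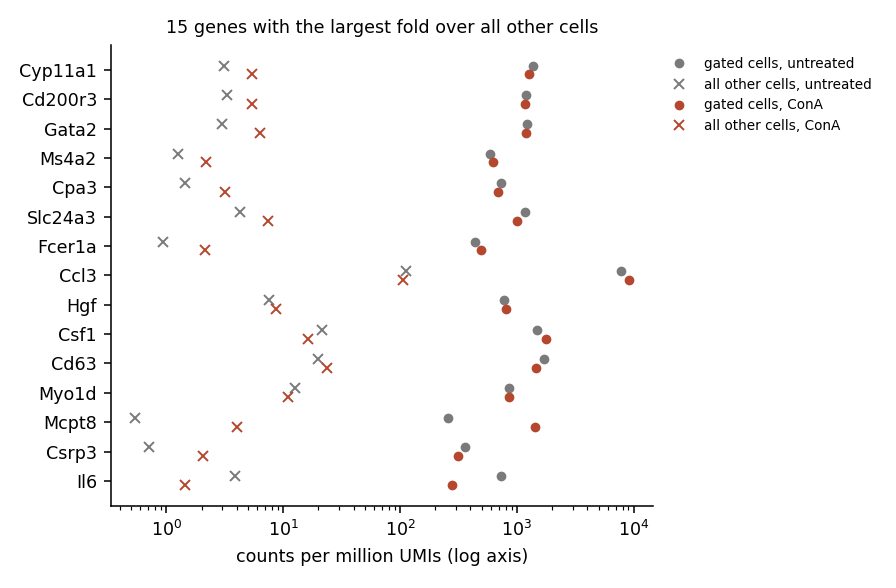
Levels (horizontal axis, CPM, logarithmic) of the 15 genes with the largest fold over all other kept cells (the smaller of both libraries' folds), in the gated cells (circles) and in all other cells (crosses) of the untreated (grey) and ConA (red) library. Circles of both libraries nearly coincide for most genes, and Mcpt8 (259 and 1437 CPM) and Il6 (725 and 280.0 CPM) are spread furthest apart.

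Both libraries' gated cells were scaled to the same total, so a median log2 ratio near 0 says little of how alike they were. Among 9026 genes with at least 10 CPM in either library the median log2 ratio was -0.07. Of these, 10.3% were at least 2-fold higher and 12.6% at least 2-fold lower in the ConA library. Among the 3731 genes with at least 50 CPM in either library and 20 UMIs in both together, 151 (4.05%) were higher and 222 (5.95%) lower by that measure. These shares are the background against which the gene groups below are read.

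Several levels bear on all comparisons of low genes. Droplets carry free RNA of other cells. Beside their level in all other cells, the immunoglobulin gene Igkc was at 6.76% in the untreated and 9.81% in the ConA gate, the neutrophil gene S100a8 at 8.73% and 7.21%, and the monocyte gene Lyz2 at 14.0% and 9.29%. Summed markers of other lineages were not at an even share. Those of conventional dendritic cells were at 46.5% and 39.5%, of plasmacytoid dendritic cells at 25.4% and 10.4%, of plasma cells at 37.5% and 14.1%, of monocytes and macrophages at 17.8% and 20.1%, and of erythroid cells at 11.4% and 75.1%. Summed markers of ILC2 (239% and 114%), eosinophils (123% and 166%) and platelets (453% and 313%) were above those of all other cells. The ILC2 list holds Il7r and Il1rl1, and the platelet list holds Itga2b. The plasmacytoid dendritic list holds Bst2, which is also in the interferon-stimulated list below. Xbp1 of the plasma list is also among the lineage transcription factors below. Summed neutrophil markers stood at 1782 and 640 CPM in the gated cells, with 2 and 1 of 8 at 0, and summed monocyte and macrophage markers at 1481 and 435 CPM, with 2 of 8 at 0 in both. Both lists were also higher in all other cells of the untreated library (22992 and 8437 CPM for neutrophil, 8328 and 2167 CPM for monocyte markers). No barcode sequence of a gated cell occurred in the other library, although 82 barcodes did among all.

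Among cytokines, Il4, the interleukin basophils are best known for, was found at 119 CPM in the untreated and 203 CPM in the ConA cells. These levels rest on 23 UMIs in 19 of 57 cells and 76 UMIs in 43 of 103 cells. The log2 ratio was 0.74 (0.08 to 1.51). In single cells Il4 ranged from 0 to 3 UMIs in the untreated and from 0 to 10 in the ConA library, with a median of 0 in both. After each cell was thinned to 1000 UMIs, Il4 was detected in 18.2% of 55 untreated cells (9.08 to 30.9) and 14.0% of 100 ConA cells (7.87 to 22.4), so the share of cells went the other way from the CPM and no order is read from it. Without thinning, B-gated cells (Cd79a detected, Cd3e not), which should lack Il4, had an Il4 UMI in 0.577% and 1.32% of cells. The medians of these B-gated cells were 2893 and 3232 UMIs. T-gated cells (Cd3e detected, Cd79a not) had an Il4 UMI in 7.4% and 7.44% without thinning. After thinning, the shares were 0.6% and 0.4% in B-gated and 1.6% and 2.6% in T-gated cells. The gated cells held 4.84% of all Il4 UMIs of the untreated library (3.09 to 7.18) and 7.16% of those of the ConA library (5.68 to 8.88). Il13, the related type 2 cytokine, had 2 and 4 UMIs in them. Il5, Il10, Areg, Csf2 and Retnla had none, which allows a level of up to 15.5 CPM in the untreated and 8.0 CPM in the ConA cells (3 UMIs of each total). The libraries held only 2 and 3 Il5 UMIs in all, so its absence from the gated cells says little.

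Il6, which encodes a cytokine of the acute phase response, was lower in the ConA cells. It stood at 725 CPM (140 UMIs in 28 of 57 cells) in the untreated and 280.0 CPM (105 UMIs in 42 of 103 cells) in the ConA library, which is -1.36 as a log2 ratio (-1.75 to -1.0). Il6 was also lower in all other cells of the ConA library (3.83 and 1.46 CPM). Single cells ranged from 0 to 15 and from 0 to 10 UMIs, so the ranges overlap, and no cell held more than 10.7% of its library's Il6 UMIs in the gate. After thinning, 30.9% of untreated cells (19.1 to 44.8) and 17.0% of ConA cells (10.2 to 25.8) had an Il6 UMI. B-gated cells had one in 0.2% of 500 thinned cells in both libraries, and in 0.631% and 0.318% of all cells without thinning. A stricter lineage rule left out cells with 3 or more markers of a lineage. It used lists of B, T, NK or ILC1, neutrophil, platelet, plasmacytoid dendritic, plasma and hepatocyte markers, but not of monocytes or conventional dendritic cells. In the 35 untreated and 63 ConA cells that it kept, the Il6 log2 ratio was -0.40 and no longer 2-fold. Although so few, the gated cells held 34.2% of all Il6 UMIs of the untreated library (29.6 to 39.1) and 50.2% of those of the ConA library (43.3 to 57.2). With the barcodes left out for a lineage gene these shares were 48.7% and 81.3%.

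Growth factor genes for other cells were abundant and near equal. Csf1, the growth factor of macrophages, stood at 1487 and 1776 CPM, a log2 ratio of 0.26 (0.05 to 0.46). It was at 21.4 and 16.3 CPM in all other cells, and the gated cells held 16.1% of the untreated and 36.5% of the ConA library's Csf1 UMIs. Hgf, a growth factor of hepatocytes, stood at 772 and 803 CPM (log2 ratio 0.06, -0.23 to 0.35), and the gated cells held 21.8% and 32.8% of its UMIs. Osm, a cytokine of the IL-6 family, stood at 1518 and 1608 CPM (0.08, -0.12 to 0.29), and the share of its UMIs in the gated cells was 4.12% and 25.1%. In all other cells Osm was at 97.1 and 25.2 CPM. Tgfb1, at 161 and 128 CPM, was no higher than in all other cells (214 and 148 CPM). Il1b had 17 UMIs in the untreated and 3 in the ConA cells (88.1 and 8.0 CPM), far under its level in all other cells (684 and 91.7 CPM). Of 25 cytokine and growth factor genes, 10 had at least 10 CPM in either library. Of these 1 was at least 2-fold higher and 3 at least 2-fold lower in the ConA library, beside 10.3% and 12.6% of all measured genes, and their median log2 ratio was 0.04.

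Chemokine genes were the most abundant secreted products. Ccl4 stood at 9800.2 and 11044 CPM and Ccl3 at 7832 and 9023 CPM. Both encode chemokines that attract leukocytes. Their log2 ratios were 0.17 (0.09 to 0.25) and 0.20 (0.12 to 0.29). Single cells had medians of 28 and 35 Ccl4 UMIs, and 57 of 57 and 100 of 103 cells had at least 1. The gated cells held 16.0% of the untreated and 30.8% of the ConA library's Ccl3 UMIs, and 9.47% and 17.5% of its Ccl4 UMIs. Ccl6 stood at 8469 and 6215 CPM (-0.45, -0.54 to -0.35) and Ccl9 at 1108 and 1119.9 CPM (0.01, -0.23 to 0.26). Both are chemokines of myeloid cells in mice that bind CCR1. Ccl6 was also lower in all other cells of the ConA library (535 and 182 CPM), as was Ccl9 (92.0 and 28.8 CPM). Cxcl2, a neutrophil attractant, stood at 150 and 109 CPM (-0.44, -1.18 to 0.28), and without the lineage rule its log2 ratio was -1.38. Ccl5 was higher in the ConA cells (67.3 and 229 CPM, log2 ratio 1.70, 0.92 to 2.73), and was far lower than in all other cells of both libraries (890 and 2521 CPM). The part of free RNA in it was not tested. The median log2 ratio of 10 measured chemokine genes was -0.21. Of these, 1 was higher and 3 lower by 2-fold, beside 10.3% and 12.6% of all measured genes.

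**Figure D3:**
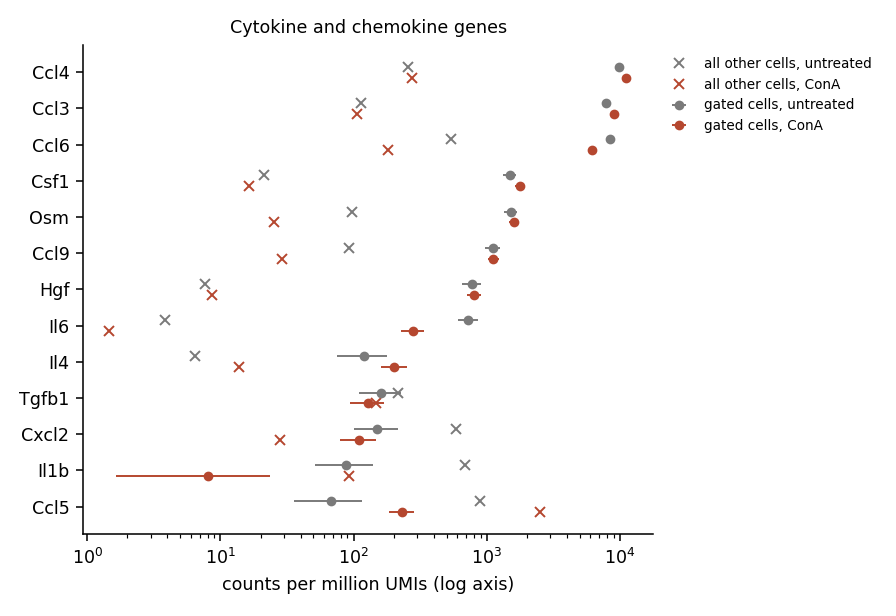
Levels (horizontal axis, CPM, logarithmic) of 13 cytokine and chemokine genes in the gated cells (circles, with exact 95% Poisson intervals for counting error) and in all other kept cells (crosses) of the untreated (grey) and ConA (red) library. Chemokines, Csf1, Osm, Hgf and Il6 lie far to the right of the crosses except Cxcl2 in the untreated library and Ccl5, and Il6 is the gene with the widest gap among those above 200 CPM in both libraries (725 and 280.0 CPM).

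Interferon-stimulated genes, which encode antiviral effectors induced by type I interferon, were lower in the ConA cells almost throughout. Of 25 measured genes of the list, 23 were at least 2-fold lower and 0 higher, beside 12.6% and 10.3% of all measured genes. Of the 16 that also met the higher count limit, all 16 were lower, beside 5.95%. The median log2 ratio was -2.71, or -2.54 with genes at 0 set to a floor of 3 UMIs. The summed level of the list was 3802 CPM in the untreated and 619 CPM in the ConA cells. Single cells held 0 to 65 UMIs of the list with a median of 9 in the untreated library, and 0 to 40 with a median of 1 in the ConA library. At least 1 such UMI was found in 56 of 57 and 71 of 103 cells, so the ranges overlap while the medians are apart. The 2 genes short of 2-fold were Ifit1 (6 and 6 UMIs) and Ifit3b (2 and 2 UMIs).

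Ifit3, of the tetratricopeptide proteins that interferon induces, had 21 UMIs in 14 untreated cells and none in the ConA cells, at least 13.6-fold lower against a floor of 3 UMIs over the ConA gate. Oas3, a synthase of the messenger that activates RNase L, stood at 187 and 13.3 CPM (log2 ratio -3.38, -5.51 to -2.45). Its relative Oasl1, a brake on Irf7 translation, stood at 145 and 8.0 CPM (-3.53, -6.54 to -2.49). Genes of nucleic acid sensors followed, with Ifih1 at 129 and 8.0 CPM (-3.37), Zbp1 at 197 and 16.0 CPM (-3.26) and Ddx60 at 218 and 18.7 CPM (-3.23). Eif2ak2, the kinase PKR, stood at 135 and 10.7 CPM (-3.16) and Trim30d at 124 and 5.33 CPM (-3.65). Slfn4 and Slfn5, of the Schlafen family, had the largest differences. Slfn4 had 41 UMIs in 26 untreated cells and none in the ConA cells, at least 26.5-fold lower, and 31.7% of its UMIs lay in 1 cell. Slfn5 stood at 233 and 5.33 CPM (-4.53, -8.54 to -3.51). Isg15, a ubiquitin-like modifier chosen for description after its values were seen, stood at 435 and 90.7 CPM (-2.20, -2.88 to -1.67). It had a UMI in 33 of 57 and 13 of 103 cells.

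The same list was lower in all other kept cells of the ConA library, where 26 of 26 measured genes were at least 2-fold lower and the median log2 ratio was -2.98. The difference between the gated and all other cells was not tested. In the untreated library Isg15 in the gated cells was at 42.2% of its level in all other cells and Ifit3 at 24.1%, beside 6.76% to 14.0% for Igkc, S100a8 and Lyz2. Summed markers of other lineages ran wider in the same cells, with B cells at 7.04%, monocytes and macrophages at 17.8%, plasma cells at 37.5% and conventional dendritic cells at 46.5%. In the ConA library Isg15 was at 125% and Ifit3 at 0%. The part of free RNA in the difference was not tested. Interferon-gamma-induced genes had a median log2 ratio of -1.13 over 15 measured genes. Of these, 10 were at least 2-fold lower and 0 higher, beside 12.6% and 10.3% of all measured genes. Of the 8 that also met the higher count limit, 4 were lower, beside 5.95%. Psmb8, an immunoproteasome subunit, stood at 321 and 144 CPM (-1.13, -1.71 to -0.61), Tap1, of the peptide transporter, at 124 and 48.0 CPM (-1.29, -2.34 to -0.43) and Gbp7, a guanylate-binding protein, at 109 and 45.3 CPM (-1.18). Irf1, chosen after its values were seen, was at 445 and 293 CPM (-0.59). The list's median in all other cells was -0.58, and 5 of 18 measured members were at least 2-fold lower there. Gbp7 was among these (112 and 52.9 CPM).

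**Figure D4:**
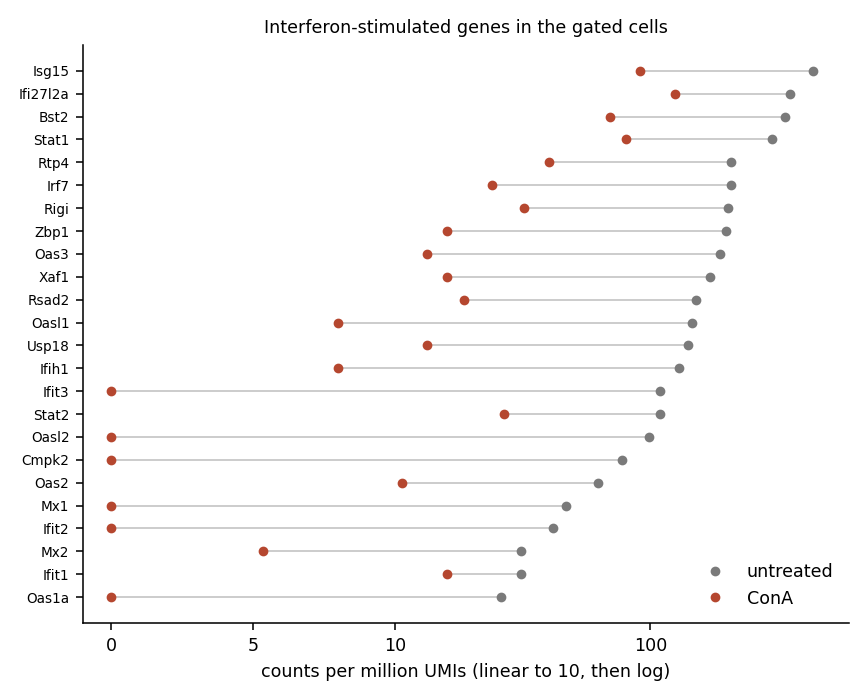
Levels (horizontal axis, CPM, linear to 10 and logarithmic above) of 24 of the 25 measured interferon-stimulated genes in the gated cells of the untreated (grey) and ConA (red) library, 1 row per gene, with a line joining both values. Ifit3b (2 UMIs in each library) is not drawn, every red point lies to the left of its grey point, and genes at 0 in the ConA library include Ifit3, Oasl2 and Cmpk2.

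To show promoter letters found before some of these genes, the same RefSeq windows were searched on both strands for GAAANNGAAA, the core of the element that interferon-activated factors bind. Among all 27025 gene symbols 3.46% had it. Only 16 of the 24 list members looked up were in the table, too few to describe the list. The letters were found in 8 of these 16 and in 0 of the 7 gate genes. Of the matches found, those of Isg15, Ifit3 and Oas3 are shown, with matches in capitals (TTTCNNTTTC is the other strand). The windows are chr4:156200860-156200911 on the minus strand, chr19:34583358-34583431 on the plus strand and chr5:120777710-120777749 on the minus strand, read 5′ to 3′ toward the start. Isg15 holds 3 matches that overlap each other, Ifit3 holds 2 apart and Oas3 holds 1.
Isg15: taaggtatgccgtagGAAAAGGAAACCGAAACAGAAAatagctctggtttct
Ifit3: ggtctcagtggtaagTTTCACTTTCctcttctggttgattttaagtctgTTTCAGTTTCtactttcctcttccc
Oas3: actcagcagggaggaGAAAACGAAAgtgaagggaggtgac
No binding was measured here.

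The granule genes Mcpt8 and Prss34 were higher in the ConA cells, and these differences rest in large part on few cells. Mcpt8, the protease basophils are named by in mice, stood at 259 and 1437 CPM, a log2 ratio of 2.45 (2.05 to 2.92). It was detected in 25 of 57 and 62 of 103 cells, with 0 to 7 UMIs per untreated and 0 to 189 per ConA cell. Prss34, the related tryptase of basophils, stood at 82.9 and 3050.3 CPM (5.12, 4.50 to 6.01), from 16 UMIs in 4 untreated cells and 1144 UMIs in 12 ConA cells. In the ConA library 3 cells with 462, 529 and 122 Prss34 UMIs held 97.3% of its Prss34 and 69.9% of its Mcpt8 UMIs. Without these 3 cells Prss34 stood at 82.9 and 88.6 CPM (0.09, -0.82 to 1.07) and Mcpt8 at 259 and 463 CPM (0.83, 0.37 to 1.33).

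The pair of these cells with the most Prss34 also stood apart in other genes. They had 8488 and 12103 UMIs, against a median of 3623, and all 7 gate genes. They held 24 and 45 UMIs of Stmn1, a microtubule regulator of dividing cells, 9 and 8 of Mki67, 55 and 81 of Hmgb2 and 6 and 15 of Ctsg, the protease cathepsin G of myeloid granules. Together they had 95.8% of the Stmn1 and 89.5% of the Mki67 UMIs of the ConA gate. The third had no Stmn1, Mki67 or Ctsg UMI. Of 19 measured cell cycle genes 12 were at least 2-fold higher in the ConA cells and 0 lower, beside 10.3% and 12.6%, with a median log2 ratio of 2.24, or 0.85 with genes at 0 set to the floor. Without the 3 cells 11 genes were measured, 3 were higher and the median was 0.26. Top2a, at 10.4 and 77.3 CPM with all cells (2.42), had 2 UMIs in each library without them, and its log2 ratio was -0.52. Hmgn2 (5.18 and 98.7 CPM), H1f5 (5.18 and 77.3 CPM) and Stmn1 (5.18 and 192 CPM), all of dividing cells or chromatin, were among the 10 largest upward, with 48.6%, 55.2% and 62.5% of their ConA UMIs in 1 cell. Fam20b, a xylose kinase of proteoglycan assembly, was spread wider, with 1 UMI in the untreated and 23 UMIs in 20 ConA cells. With predicted doublets removed the log2 ratios of Prss34 and Stmn1 were 5.14 and 4.34. In the 35 and 63 cells kept by the stricter lineage rule they were 2.12 and 0.09.

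**Figure D5:**
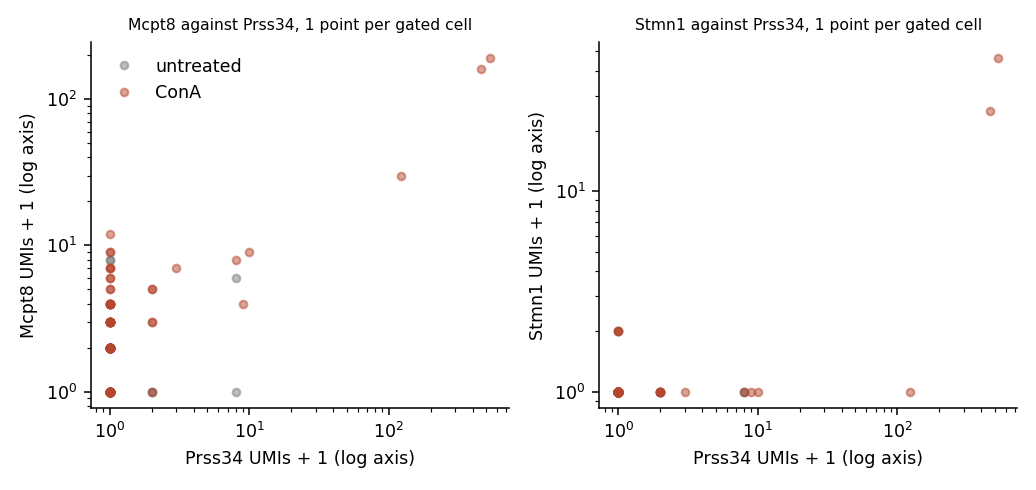
UMIs of Mcpt8 (left) and Stmn1 (right) against UMIs of Prss34 in each gated cell, all plus 1 on logarithmic axes, 57 untreated (grey) and 103 ConA (red) cells. In the ConA library 3 cells lie far to the right with 122, 462 and 529 Prss34 UMIs, and the top pair of them alone has more than 10 Stmn1 UMIs.

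Other genes of mediators were at like levels. Srgn, the proteoglycan core that packs granule proteins, was at 5195 and 4824 CPM. Slc18a2, which loads histamine into granules, was at 166 and 187 CPM, against 0.6 and 1.4 in all other cells. Alox5 and Alox5ap, which open leukotriene synthesis, were at 316 and 277 CPM and at 1730.1 and 1696 CPM. These 4 genes were chosen after their values were seen. Serpinb1a, an inhibitor of granule proteases, stood at 145 and 256 CPM (0.80, 0.20 to 1.48). The median log2 ratio of 14 measured granule and lipid mediator genes was -0.08. Of these, 2 were higher (Prss34 and Ctsg) and 0 lower, beside 10.3% and 12.6% of all measured genes. Ctsg was higher only with the Prss34-rich cells, and without them its log2 ratio was -1.39 on 3 and 1 UMIs.

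Signalling genes of the IgE receptor gave no common direction. Of 21 measured, 1 was at least 2-fold higher and 1 lower, beside 10.3% and 12.6% of all measured genes. The higher one was Grap2, an adaptor (4 and 20 UMIs, at 207 and 415 CPM in all other cells). The lower one was Rasgrp4 (5 and 3 UMIs), and the list's median log2 ratio was -0.12. Lyn, the kinase that starts receptor signalling, stood at 502 and 264 CPM (-0.92, -1.35 to -0.51) with 19.6% of its untreated UMIs in 1 cell. Its log2 ratio was -0.39 with predicted doublets removed and -0.50 without the lineage rule. Lyn was also lower in all other cells of the ConA library (1066 and 485 CPM). Inpp5d, the phosphatase SHIP1 that restrains the pathway, stood at 280 and 419 CPM (0.57, 0.13 to 1.06). Orai1, the calcium channel of store-operated entry, stood at 155 and 96.0 CPM (-0.67, -1.43 to 0.05), a difference not detectable at this depth.

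Receptors for cytokines that act on basophils were present in both libraries. Csf2rb, the beta chain shared by the receptors of IL-3, IL-5 and GM-CSF, stood at 1160.3 and 1309 CPM against 145 and 46.9 in all other cells. Il3ra, the alpha chain for IL-3, stood at 72.5 and 77.3 CPM, Il18r1 at 699 and 736 CPM, and Il1rl1, the IL-33 receptor, at 135 and 104 CPM against 1.5 and 3.0 in all other cells. These 4 receptors were chosen after their values were seen. Of 23 measured receptor genes, 0 were higher and 2 lower by 2-fold, beside 10.3% and 12.6% of all measured genes. The list's median log2 ratio was -0.27. Ifngr1, for interferon gamma, was at 82.9 and 45.3 CPM (-0.80, -1.94 to 0.21) and Ifnar1, for type I interferon, at 51.8 and 34.7 CPM (-0.52, -1.88 to 0.77). Neither difference was detectable at this depth.

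Among inhibitory receptors 0 of 14 were higher and 3 lower by 2-fold (median -0.23), beside 10.3% and 12.6% of all measured genes. Pirb, a paired immunoglobulin-like receptor, had 16 and 10 UMIs (82.9 and 26.7 CPM, -1.47, -2.94 to -0.41), and was also lower in all other cells (218 and 47.2 CPM). Fcgr2b, the inhibitory IgG receptor, was at 145 and 96.0 CPM (-0.57, -1.35 to 0.17). For homing, Selplg, an adhesion ligand on leukocytes, was at 440 and 304 CPM (-0.53, -0.95 to -0.11), and Itga2, the integrin chain detected by the antibody DX5 with which basophils are sorted, at 311 and 224 CPM (-0.46, -0.97 to 0.03). Itga4 was lower in the ConA cells (280 and 82.7 CPM, -1.70), but 74.1% of its untreated UMIs lay in the cell with 5 Kit UMIs. Without the 2 mast-type cells its log2 ratio was 0.00. Of 21 measured chemoattractant receptor and adhesion genes, 2 were higher and 2 lower (median -0.22), beside 10.3% and 12.6% of all measured genes.

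Transcription factors of the lineage differed little (median -0.10). Of 21 measured, 0 were higher and 2 lower by 2-fold, beside 10.3% and 12.6% of all measured genes. Lmo2, a cofactor of GATA and TAL1 complexes, was at 114 and 42.7 CPM (-1.32, -2.44 to -0.42) and Tal1 itself at 98.4 and 144 CPM (0.53, -0.23 to 1.39). Fli1, an ETS factor, was at 440 and 608 CPM (0.46, 0.10 to 0.84). Early response genes were high in both libraries. Of 25 measured, 2 were higher and 3 lower (median -0.24), beside the same shares of all measured genes. Egr3, which follows calcium signalling, stood at 62.2 and 187 CPM (1.51, 0.69 to 2.61), in 9 of 57 and 36 of 103 cells, and at 13.2 CPM in all other cells of both libraries. With the barcodes left out for a lineage gene added, its log2 ratio was 0.59. The feedback genes Ier3 (2383 and 1488 CPM, -0.68, -0.86 to -0.50) and Nfkbia (2605 and 1730.5 CPM, -0.59, -0.76 to -0.42) were lower in the ConA cells, and both were also lower in all other cells (131 and 25.9 CPM, 614 and 244 CPM). Such genes also answer to tissue dissociation. Of 9 measured heat shock and chaperone genes, 1 was higher (Hsph1, 2 and 22 UMIs) and 0 lower, beside the same shares. The list's median log2 ratio was 0.39. It was 0.58 in all other cells, with 3 of 10 measured genes higher and 0 lower. Hsph1 was also higher there in the ConA library (13.0 and 65.8 CPM).

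Survival genes had a median log2 ratio of -0.44 over 12 measured members. Of these, 1 was higher and 3 lower by 2-fold, beside 10.3% and 12.6% of all measured genes. Pim1, a kinase induced by IL-3, stood at 1378 and 853 CPM (-0.69, -0.93 to -0.45) and Mcl1, which blocks apoptosis, at 637 and 413 CPM (-0.62, -0.98 to -0.27). Both were also lower in all other cells of the ConA library (581 and 290.1 CPM, 639 and 294 CPM). MHC class II genes were low beside all other cells. Cd74, the invariant chain, stood at 352 and 336 CPM, 9.40% and 10.5% of its level in all other cells, and H2-Aa at 114 and 144 CPM against 1404 and 1243 CPM. The part of free RNA in these levels was not tested. H2-Aa, H2-Ab1 and H2-Eb1 had log2 ratios of 0.32, 0.08 and -0.27 with intervals that include 0. In this list the lysosomal protease Ctss was lower (212 and 37.3 CPM, -2.36, -3.50 to -1.60), and it was so in all other cells too (1347 and 357 CPM).

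Globin genes had the largest upward differences beside Prss34. Hbb-bs stood at 575 and 17993 CPM (log2 ratio 4.96, 4.70 to 5.25), with Hbb-bt, Hba-a1 and Hba-a2 at log2 ratios of 5.40, 5.16 and 5.21. The 4 genes together had 234 UMIs in the untreated and 15889 in the ConA gate, a median of 4 and 23 per cell. In the ConA library 1 cell held 49.3% of them, and 3 cells with at least 100 Hbb-bs UMIs held 81.7% of the Hbb-bs UMIs. Without these 3 cells Hbb-bs was at 575 and 3529 CPM (2.61). Hbb-bs in the gated cells was at 11.9% and 72.4% of its level in all other cells, and all 103 ConA cells had an Hbb-bs UMI. Summed erythroid markers were at 10675 and 56540 CPM in all other cells. The source of these UMIs was not tested.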

How the data were processed

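The authors deposited raw UMI counts per gene and barcode for both 10x libraries (33696 genes). The file headers name software version 8.0.1. Seurat 4.3.0, Cell Ranger 6.0.1 and a genome build, mm39, are in the submitters' processing notes. No aligner setting is given in the sources used here. The libraries hold 18088 and 18762 barcodes with 71289226 and 73589264 UMIs. Barcodes with at least 500 UMIs, 300 genes and at most 10% mitochondrial UMIs were kept. Doublets were not removed in the values given. An alternative removed those that scored highest against simulated doublets.

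UMIs of the gated cells were summed per library (193057 and 375039) and given as CPM. Log2 ratios add 5 CPM to each level. Lists were described over members with at least 10 CPM in either library. Named genes were the gate genes, up to 4 members per list with the largest ratio and at least 20 UMIs, cytokines and chemokines with at least 5 UMIs, the 10 largest ratios per direction and 15 leading genes. Others are said to be chosen later or come with a count. Some genes that the rule names are not reported here. The 10 per direction needed 50 CPM, 20 UMIs, 5 cells and 20% of the level in other cells. The members and lists were chosen with earlier results of these data known. Ddx58 was found as Rigi, and 316 of 317 list genes were found. Detection shares used cells thinned to 1000 UMIs, and 500 random cells for B-gated and T-gated cells. The calculation was tested on simulated data. Python 3.11.15, numpy 2.4.6, scipy 1.17.1, pandas 2.3.3 and scikit-learn 1.9.0 were used. Alternatives changed the gate, the lineage genes, filters, doublets, scaling, the added constant and single cells.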

Additional observations from a re-analysis of the deposited data

Results flagged for a closer look

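Of the barcodes that met the gate, 63 in the ConA library and 28 in the untreated library had a UMI of Cd79a, Cd3e, Ncr1, Siglech or Csf3r and entered no comparison of genes. They made up 0.355% (0.273 to 0.453) and 0.159% (0.106 to 0.229) of the kept barcodes. They held 65 and 59 Il6 UMIs and 63 and 14 Il4 UMIs, and their identity was not tested.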

How the results depend on the processing

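With 20 CPM added instead of 5, 81 genes were at least 2-fold higher and 139 lower (151 and 222 otherwise), and the interferon-stimulated median was -2.04. A stricter rule left out cells with 3 or more markers of a lineage. It used B, T, NK or ILC1, neutrophil, erythroid, platelet, plasmacytoid dendritic, plasma and hepatocyte lists. It kept 18 untreated and 2 ConA cells, since 101 of 103 ConA cells held 3 or more erythroid markers. The log2 ratio of the share was then -3.18 instead of 0.84, and genes were not compared under it. The same rule without the erythroid list, chosen after seeing the data, kept 35 and 63 cells and gave 129 genes lower. Under it Ctsg was at -2.24 and Top2a at -0.63. Without the 3 Prss34-rich cells, also chosen after seeing the data, they were at -1.39 and -0.52. Itga4 was at 0.086 with at least 4 gate genes, 0.34 without the lineage rule and 0.0041 without mast-type cells, 1 of which holds 74.1% of its untreated UMIs. The cause of the other changes was not tested. Of 66 values of the share, both gene counts and the interferon-stimulated median under alternatives, 61 stayed within the limits set, as did 299 of 306 list medians and 1670 of 1764 values of named genes. The limit was 0.58 in log2 units for list medians and the gene's own 95% interval for named genes, which is wide for low genes. For genes under 2-fold, a change of sign within it counted as staying. Some named genes changed sign under an alternative, among them Ccl3, Osm, Hgf and Ifngr1, while others kept it. Removing predicted doublets kept 54 and 97 gated cells. No paired analysis was possible because the labels give no replicate numbers and each group has 1 library. Genes under about 20 UMIs in the gated cells are limited by depth.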

Other observations

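Integrin genes best known from platelets were measured in the gated cells, while platelet granule genes were near 0. Itga2b, the integrin alpha chain of platelets, stood at 238 and 227 CPM in the untreated and ConA cells (46 and 85 UMIs), against 4.33 and 9.49 CPM in all other cells. Itgb3, its beta chain, had 8 and 37 UMIs (41.4 and 98.7 CPM, against 17.1 and 33.6). Pf4 had 1 and 2 UMIs and Ppbp 0 and 3. Pecam1 stood at 135 and 184 CPM, no higher than in all other cells (168 and 205 CPM). Meis1, a homeobox factor of progenitors, had 19 and 17 UMIs (98.4 and 45.3 CPM, against 10.3 and 15.5), whereas Cd34 had 1 and 0. Of 8 eosinophil markers 5 had no UMI in each library, Epx and Prg2 among them, and Siglecf had 2 and 6 UMIs. The 8 markers together stood at 67.3 and 53.3 CPM, against 54.9 and 32.2 CPM in all other cells. These genes were chosen after their values were seen.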
